A study of Homo sapiens with 8 samples.

Results

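The genes of the human mitochondrial genome were taken from 2 gene-level expression tables of Kyse510, an established line of oesophageal squamous cell carcinoma (ESCC). A gene belonged to the group when its name in either table starts with MT-. The rule found 17 of the 34164 genes listed in the tables together, out of 37 genes of the mitochondrial genome: both rRNA genes, all 13 protein genes and 2 of the 22 tRNA genes. The table of the inhibitor libraries holds 16 of the 17 and that of the hairpin libraries all 17, since MT-TF is listed only there. The other 20 tRNA genes were not analysed here. The members were chosen by gene name, while the group as a whole was selected on earlier results of these data, the FPKM of these genes in each treated library against its control. All levels and fold changes are therefore given as a description, with no test.

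The study compared pharmacological inhibition and inducible silencing of LSD1 (gene KDM1A), a histone demethylase, and G9a (gene EHMT2), which places methyl groups on histone H3. Cells of the inhibitor arm were given the vehicle DMSO, 7 µM SP2509 (an LSD1 inhibitor), 7 µM UNC0642 (a G9a inhibitor) or both compounds together for 2 days, where the label of the combination gives no dose. Cells of the silencing arm carried a doxycycline (Dox)-inducible hairpin against LSD1 (shLSD1) or G9a (shG9a), were selected in puromycin for 14 days, and were collected without or after 2 days of Dox. Each of the 8 conditions is 1 RNA-seq library with no replicate, so no p-value is given and the intervals printed are 95% exact binomial intervals, which cover counting error only. Every library with Dox also had an induced hairpin, and silencing and Dox, a tetracycline antibiotic known to inhibit mitochondrial translation, cannot be told apart in these comparisons. KDM1A stood at 25.98 FPKM (fragments per kilobase of gene, scaled to the reads of the library) in the shLSD1 line without Dox and 6.289 FPKM with Dox, and EHMT2 at 7.847 FPKM in the shG9a line without Dox and 4.761 FPKM with Dox. The library labelled SP2509+UNC0642 had 5.38 FPKM of EHMT2 against 11.12 FPKM in the vehicle library.

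Libraries held 15662035 to 17889466 reads. Of 8 squamous markers, 5 were at 5 FPKM or more in every library. Of 9 markers of immune, endothelial, stromal and muscle cells none reached 5 FPKM in all libraries. Under 1 FPKM wherever listed were 6 of the 9, among them CD3E, which is listed only in the hairpin libraries. The stromal marker COL1A1 ran from 2.92 to 5.358 FPKM. The summed level of the squamous markers ran from 731.8 to 4932 FPKM. The keratin KRT17 was 324.2 FPKM with vehicle, 3716 FPKM with SP2509, 806.4 FPKM with UNC0642 and 593.7 FPKM with both inhibitors, and went with Dox from 1737 to 265.1 FPKM (shLSD1) and from 1596 to 158.2 FPKM (shG9a). The squamous markers did not move as a set. With both inhibitors TP63 went from 79.14 FPKM with vehicle to 18.33 FPKM and KRT5 from 426.7 to 162.7 FPKM. SFN went from 179.3 to 690.2 FPKM there. With Dox in the shG9a line, KRT5 went from 177.5 to 311.8 FPKM and SFN from 205.6 to 611.3 FPKM. The summed level of the other cell types' markers ran from 3.672 to 7.084 FPKM. The part of the squamous programme in the mitochondrial values was not tested. The measurements are of bulk RNA relative to the rest of each library, in which fewer cells of high level and less RNA per cell cannot be told apart.

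The mitochondrial genome is a circle that encodes the RNA of the mitochondrial ribosome, a full set of tRNAs and the core subunits of the respiratory chain, while all other mitochondrial proteins are encoded in the nucleus. Both strands are transcribed as long precursors. The heavy strand precursor carries, in order, MT-TF, the rRNAs MT-RNR1 and MT-RNR2 and then all protein genes but MT-ND6, and the light strand precursor carries MT-TP and MT-ND6. The tRNAs that lie between the genes are cut out, which releases the rRNAs and mRNAs. Since genes of the heavy strand leave the same promoter region, the levels of their mature RNAs are known to be set in large part after transcription, by processing, polyadenylation and stabilising proteins such as LRPPRC.

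On the 16569-base mitochondrial chromosome of GRCh38, all 17 genes carry the same start, end and strand in the tables and in GENCODE release 44, and each has 1 exon. The 2 tRNA genes listed are shown whole because they stand at opposite ends of the transcribed circle. MT-TF, the tRNA for phenylalanine, lies at chrMT:577-647 on the + strand directly before MT-RNR1, and MT-TP, the tRNA for proline, at chrMT:15956-16023 on the - strand.
MT-TF: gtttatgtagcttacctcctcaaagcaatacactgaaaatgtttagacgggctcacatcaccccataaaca
MT-TP: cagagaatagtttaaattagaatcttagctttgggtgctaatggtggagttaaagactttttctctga

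Further sequences bear on how reads can be assigned. MT-ATP8 (chrMT:8366-8572, + strand, 207 bases) shares its last 46 bases with MT-ATP6, and the end of MT-ND4L (chrMT:10707-10766 shown, + strand) shares 7 bases with MT-ND4. Both pairs are carried on 1 mRNA each. Capitals mark the shared bases.
MT-ATP8: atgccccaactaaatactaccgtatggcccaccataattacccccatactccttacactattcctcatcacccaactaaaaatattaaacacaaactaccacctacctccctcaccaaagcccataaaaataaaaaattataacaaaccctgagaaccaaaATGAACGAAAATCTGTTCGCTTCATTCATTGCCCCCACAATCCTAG
MT-ND4L end: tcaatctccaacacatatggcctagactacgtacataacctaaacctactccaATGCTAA
A copy of MT-ATP6 in the nuclear genome, MTATP6P1 on chromosome 1, is listed as a gene of its own. The first 120 bases of both (chrMT:8527-8646 and chr1:633696-633815, + strands) differ by G19A, counted from 1 at the first base of MT-ATP6, shown in capitals.
MT-ATP6 start: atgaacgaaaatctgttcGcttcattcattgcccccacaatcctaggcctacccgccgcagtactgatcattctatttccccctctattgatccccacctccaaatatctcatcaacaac
MTATP6P1 start: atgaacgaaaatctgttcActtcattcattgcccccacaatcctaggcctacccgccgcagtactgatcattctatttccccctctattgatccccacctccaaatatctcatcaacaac

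Mitochondrial RNA was lower than control with the inhibitors and higher than control with the induced hairpins. Mitochondrial genes took 7.853% of reads in the vehicle library (interval 7.84 to 7.866%), 6.501% with SP2509, 6.158% with UNC0642 and 5.432% when both were given. The share of the shLSD1 line was 8.645% without and 10.34% with Dox, and that of the shG9a line 8.494% and 11.29% (interval 11.27 to 11.3%). The 3 inhibitor libraries were all below their control and both Dox libraries above theirs, and the 2 libraries without Dox, which come from different lines, were closer to each other than any treated library was to its control.

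Within that share, rRNA and mRNA did not move together. The rRNA genes held 1.512% of reads in the vehicle library, 2.992% with SP2509, 0.8581% with UNC0642 and 1.978% with both, and the protein genes 6.329%, 3.479%, 5.287% and 3.421% in the same order. With Dox, rRNA went from 2.479% to 1.928% of reads (shLSD1) and from 2.35% to 1.654% (shG9a), and protein genes from 6.15% to 8.399% and from 6.129% to 9.619%. Reads on protein genes per rRNA read were 4.185 with vehicle and 1.163 with SP2509, and went from 2.48 to 4.356 with induced shLSD1 and from 2.609 to 5.817 with induced shG9a. Of the 4 inhibitor libraries this balance was lowest with SP2509 and highest with UNC0642, at 6.161. The control libraries also differed, with vehicle at 4.185 and the lines without Dox at 2.48 and 2.609. How RNA was selected for the libraries is not given in the sources used here, and its part in this balance was not tested.

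**Figure D1:**
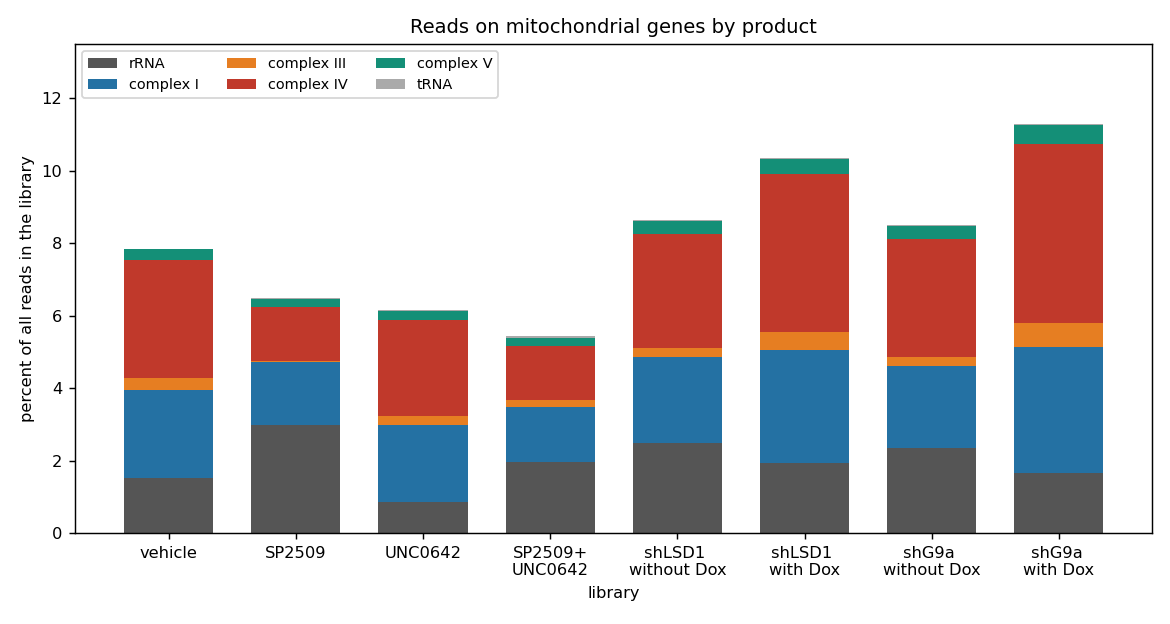
Stacked bars give the percent of all reads (y axis) that fell on mitochondrial rRNA, tRNA and the protein genes of each respiratory complex in each of the 8 libraries (x axis, 1 library per condition). The rRNA segment is tallest with SP2509 (2.992%) although its whole bar (6.501%) is below that of vehicle (7.853%), and both bars with Dox exceed 10%.

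Of the rRNAs, MT-RNR2 (chrMT:1671-3229, + strand), the RNA of the large ribosomal subunit, varied most. It stood at 8915 FPKM with vehicle, 18225.4 FPKM with SP2509, 4887 FPKM with UNC0642 and 11505.4 FPKM with both inhibitors. In the silencing arm it went with Dox from 14948.6 to 11636.8 FPKM (shLSD1) and from 14146.8 to 9729 FPKM (shG9a). The ratio to control was 2.044 with SP2509 (interval 2.034 to 2.055) and 0.5482 with UNC0642, so the inhibitors given singly moved it in opposite directions. MT-RNR1, the RNA of the small subunit, lies before it on the same precursor and went from 1283 FPKM with vehicle to 1584 FPKM with SP2509, 1009 FPKM with UNC0642 and 1930 FPKM with the combination. Without and with Dox it was 1562 and 1195 FPKM (shLSD1) and 1511 and 1434 FPKM (shG9a). The ratio of MT-RNR2 to MT-RNR1 in FPKM ran from 4.841 with UNC0642 to 11.51 with SP2509, and was 9.571 and 9.363 in the 2 libraries without Dox.

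Protein genes were counted as higher or lower where the FPKM plus 1 differed from control at least 1.3-fold. With SP2509, 11 of the 13 protein genes were lower and none higher, with a median log2 fold change of -1.31, beside 39.9% of all 13342 genes tested lower, 21% higher and a median of -0.21. With UNC0642, 3 were lower and none higher (median -0.23), beside 16.9% of all genes lower and 18.2% higher, so 3 of 13 was near the background. With the combination, 10 were lower and none higher (median -0.67), beside 31.7% of all genes lower and 31.4% higher. With induced shLSD1, 7 were higher and none lower (median 0.39), beside 24.8% of all genes higher, 12.3% lower and a median of 0.13. With induced shG9a, 12 were higher and none lower (median 0.94), beside 32.9% of all genes higher, 17.6% lower and a median of 0.18. Between the 2 lines without Dox no protein gene differed 1.3-fold, with log2 differences (shG9a over shLSD1) from -0.14 to 0.10, beside 7.55% of all genes past the threshold in either direction. At a fold of 2, 9 protein genes were lower with SP2509 beside 13% of all genes, 0 with UNC0642 beside 3.12% and 3 with the combination beside 9.57%, and 1 was higher with shLSD1 beside 3.36% and 6 with shG9a beside 5.13%.

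As deposited, each of the 13 protein genes was below vehicle in all 3 inhibitor libraries and above its control in both Dox libraries. The direction of the smallest changes depended on the scaling. The median of nuclear genes of at least 5 FPKM moved by 0.11 on the log2 scale with induced shLSD1 and by 0.14 with induced shG9a. Relative to those medians, 6 protein genes were past the threshold with shLSD1 and 10 with shG9a. MT-ND4 with SP2509 and MT-ATP8 with shLSD1 changed direction under that scaling, and MT-ND4L with SP2509 and MT-ND4 with shLSD1 did so under TMM (trimmed mean) scaling.

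**Figure D2:**
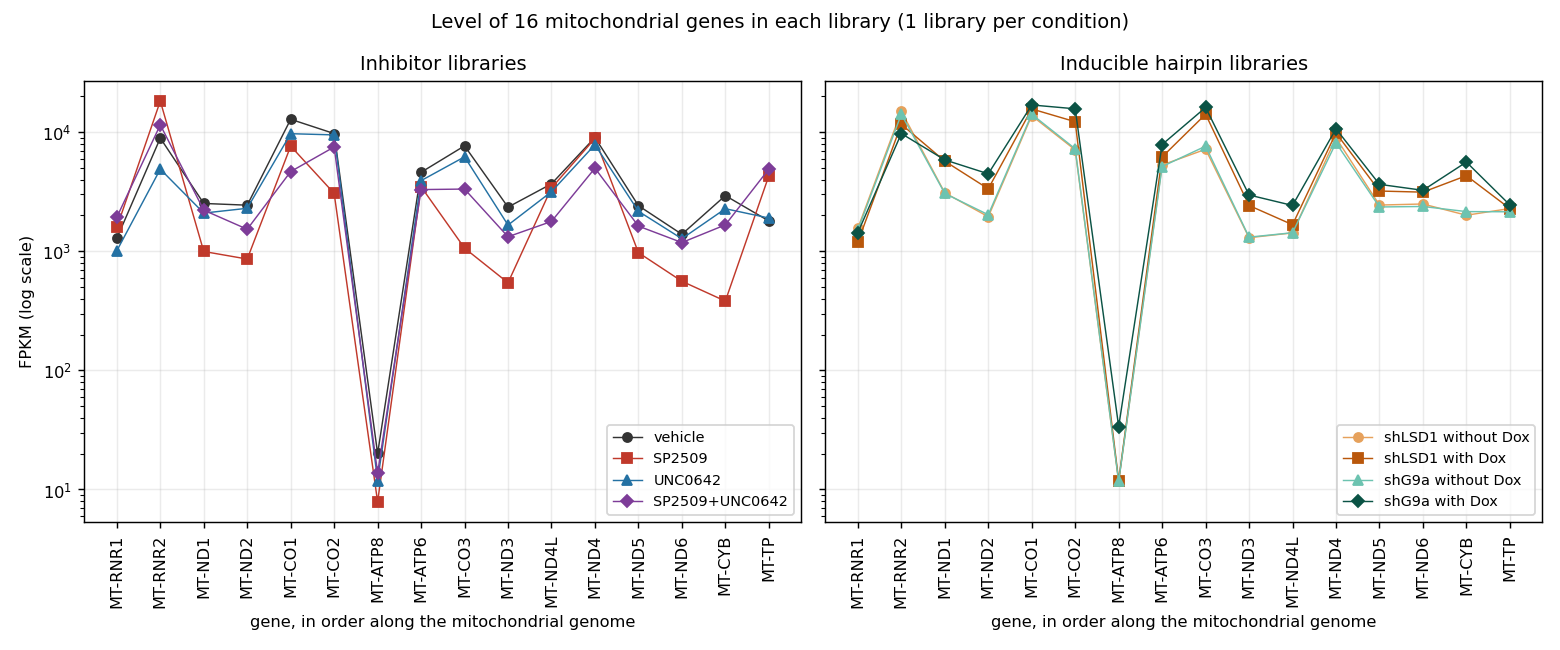
Points give the FPKM (y axis, log scale) of 16 mitochondrial genes in their order along the genome (x axis), in the inhibitor libraries at left and the hairpin libraries at right, joined within a library to guide the eye. Relative to vehicle the SP2509 points lie farthest below at MT-CYB and MT-CO3 and above at MT-RNR2 and MT-TP, and the 2 libraries without Dox nearly coincide. MT-ATP8 lies far below its neighbours in all 8 libraries.

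Complex III contains a single mitochondrially encoded subunit, cytochrome b, the product of MT-CYB (chrMT:14747-15887, + strand), and this gene had the largest log2 fold change of the 13 with SP2509 and with shLSD1. MT-CYB stood at 2931 FPKM with vehicle, 381.6 FPKM with SP2509, 2275 FPKM with UNC0642 and 1665 FPKM with both inhibitors. With Dox it went from 2006 to 4309 FPKM (shLSD1) and from 2152 to 5606 FPKM (shG9a). The ratio to vehicle was 0.1302 with SP2509 (interval 0.1271 to 0.1334), and the ratio of induced to uninduced cells was 2.148 in the shLSD1 line and 2.605 in the shG9a line.

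Complex IV, cytochrome c oxidase, is built around the products of MT-CO1, which binds the oxygen-reducing centre, MT-CO2, which receives electrons from cytochrome c, and MT-CO3. MT-CO3 stood at 7669 FPKM with vehicle, 1062 FPKM with SP2509, 6202 FPKM with UNC0642 and 3327 FPKM with both inhibitors, and went with Dox from 7176 to 14130.9 FPKM with shLSD1 and from 7620 to 16115.1 FPKM with shG9a. MT-CO2 was 9725 FPKM with vehicle, 3059 FPKM with SP2509, 9477 FPKM with UNC0642 and 7506 FPKM with both inhibitors, and went from 7091 to 12225.3 FPKM and from 7245 to 15693.4 FPKM with Dox. MT-CO1, the protein gene of highest level in vehicle, was 12816.6 FPKM there, 7629 FPKM with SP2509, 9700 FPKM with UNC0642 and 4665 FPKM with the combination. With Dox, MT-CO1 went only from 13747.6 to 15653.8 FPKM and from 14122.1 to 16906.6 FPKM. Subunits of the same enzyme therefore changed by different amounts: the ratio of MT-CO1 to MT-CO3 in FPKM was 1.671 with vehicle and 7.181 with SP2509, and it went from 1.853 to 1.049 with induced shG9a.

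Complex I, NADH dehydrogenase, has 7 mitochondrial subunits. With SP2509, 5 of the 7 were lower and MT-ND4 and MT-ND4L were not. MT-ND1 went from 2519 FPKM with vehicle to 995.5 FPKM with SP2509, 2091 FPKM with UNC0642 and 2213 FPKM with the combination, MT-ND2 from 2436 to 859.8, 2294 and 1530 FPKM, and MT-ND3 from 2346 to 543.6, 1659 and 1323 FPKM. All 3 were lowest with SP2509. MT-ND5 was 2414 FPKM with vehicle, 973.6 FPKM with SP2509, 2165 FPKM with UNC0642 and 1626 FPKM with both inhibitors. MT-ND4 was 9016 FPKM with vehicle and 8846 FPKM with SP2509 (log2 fold change -0.03) and 7843 FPKM with UNC0642, but 4980 FPKM with the combination. MT-ND4L, on the same mRNA, was 3679, 3396, 3162 and 1779 FPKM in the same order. These 2 genes thus stayed within 1.3-fold of vehicle with each inhibitor alone and fell below it with both together.

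With Dox, all 7 complex I genes were higher in the shG9a line and 4 in the shLSD1 line. MT-ND1 went from 3090 to 5704 FPKM with shLSD1 and from 3055 to 5847 FPKM with shG9a. MT-ND2 went from 1949 to 3344 FPKM and from 2025 to 4467 FPKM, and MT-ND3 from 1299 to 2421 FPKM and from 1313 to 2966 FPKM. MT-ND5 went from 2442 to 3202 FPKM and from 2353 to 3644 FPKM, which in the shLSD1 line is a log2 fold change of 0.39, just past the threshold of 1.3-fold. MT-ND4 went from 8953 to 9838 FPKM and from 8133 to 10662.4 FPKM, and MT-ND4L from 1426 to 1670 FPKM and from 1430 to 2423 FPKM. The ratio of MT-ND4 to MT-ND4L was 2.451 to 2.8 in the inhibitor libraries and 4.4 to 6.277 in the hairpin libraries, although both are read from 1 mRNA, so levels are compared within a table and not between the tables. Within the shG9a line the ratio also went from 5.687 to 4.4 with Dox. There MT-ND4 changed 1.311-fold and MT-ND4L 1.695-fold, so genes of 1 mRNA can differ in fold change within a table too.

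MT-ND6 (chrMT:14149-14673, - strand), a membrane subunit of complex I, is the 1 protein gene of the light strand. It stood at 1388 FPKM with vehicle, 559.8 FPKM with SP2509, 1274 FPKM with UNC0642 and 1183 FPKM with both inhibitors, and without and with Dox at 2493 and 3134 FPKM (shLSD1) and 2376 and 3247 FPKM (shG9a). Its log2 fold change of -1.31 with SP2509 was close to the median of -1.32 of the 12 heavy strand protein genes, while with the combination it was -0.23 against a median of -0.74. With Dox it was 0.33 against 0.58 in the shLSD1 line and 0.45 against 1.01 in the shG9a line. With 1 gene on the light strand the strands were not compared further. The sources used here do not state a strand setting for the counting, so reads of MT-ND6 and of heavy strand RNA across it cannot be told apart.

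**Figure D3:**
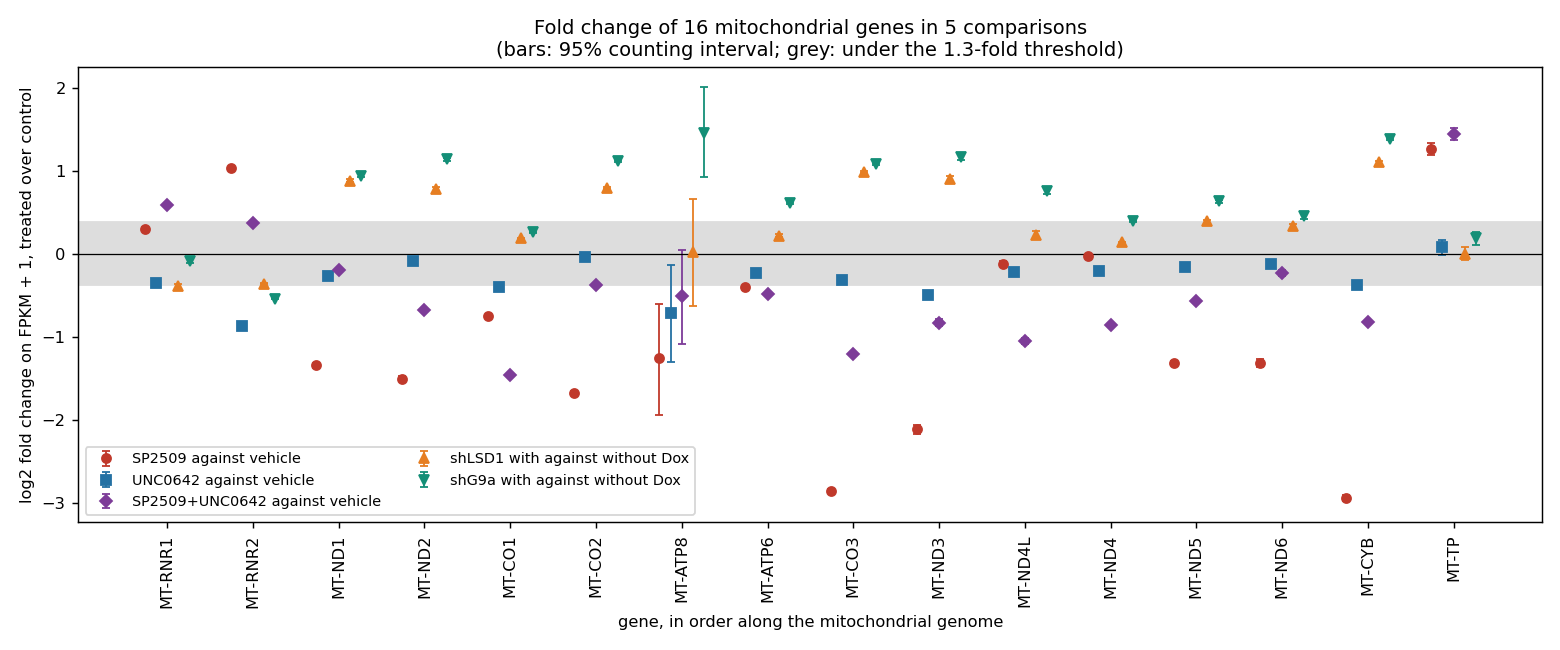
Points give the log2 fold change on the FPKM + 1 scale (y axis) of 16 mitochondrial genes in genome order (x axis) in the 5 comparisons, with bars for the 95% counting interval and grey for changes under 1.3-fold. Protein genes lie below 0 with the inhibitors and above 0 with Dox, MT-CYB and MT-CO3 lie farthest from 0 with SP2509, and MT-TP lies above 1 with SP2509 and with the combination.

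Complex V, ATP synthase, has 2 mitochondrial subunits that share an mRNA. MT-ATP6, part of its proton channel, was 4600 FPKM with vehicle, 3483 FPKM with SP2509, 3915 FPKM with UNC0642 and 3293 FPKM with both inhibitors. With Dox it went from 5296 to 6186 FPKM with shLSD1 and from 5143 to 7867 FPKM with shG9a. MT-ATP8 was listed at 7.869 to 33.75 FPKM on only 29 to 121 reads, and MT-ATP6 was 229.4 to 521.3 times higher in FPKM. How reads over the 46 shared bases printed above were assigned is not given in the sources used here. MT-ATP8 had 65 reads in the vehicle library, 29 with SP2509, 44 with UNC0642 and 48 with both, then 43 reads both without and with Dox (shLSD1) and 40 and 121 reads (shG9a). Its ratio of 2.889 with induced shG9a had an interval of 2.006 to 4.241 and its ratio with the combination, 0.6852, one of 0.4618 to 1.01. For every other gene with at least 1912 reads the half-width of a ratio's interval was at most 6.091%.

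MT-TP did not follow the mRNAs. This tRNA, the first gene of the light strand precursor, was 1795 FPKM with vehicle, 4289 FPKM with SP2509, 1901 FPKM with UNC0642 and 4889 FPKM with both inhibitors. The ratio was 2.389 with SP2509 (interval 2.267 to 2.519) and 2.723 with the combination, the 2 libraries that received SP2509, while 1.059 with UNC0642 had an interval of 0.996 to 1.125. With Dox MT-TP went from 2284 to 2281 FPKM with shLSD1 and from 2144 to 2447 FPKM with shG9a. MT-TP and MT-ND6 are both genes of the light strand, and with SP2509 they went in opposite directions (log2 fold changes of 1.26 and -1.31). As for MT-ND6, no strand setting is stated, so reads of MT-TP and of heavy strand RNA across it cannot be told apart. MT-TF had 0 reads in both shLSD1 libraries, which at 3 counts allows up to 2.38 and 2.413 FPKM, and 1 read before and 5 after Dox in the shG9a line, a ratio of 4.775 with an interval of 0.5344 to 225.9. Mature tRNAs are shorter than the 150-base reads, and how well the libraries sampled them was not tested.

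The combination, at a dose the label does not give, was lower than UNC0642 alone for 11 of the 13 protein genes, the others being MT-ND1 (1.058 times) and MT-ATP8 (1.156 times). For 9 of the 13 protein genes it lay between SP2509 and vehicle. MT-CYB, for example, was 4.363 times and MT-CO3 3.132 times the level with SP2509 alone. For the other 4 genes, MT-CO1, MT-ATP6, MT-ND4L and MT-ND4, it was the lowest of the 4 libraries, at 0.6115, 0.9455, 0.5237 and 0.563 of the level with SP2509. SP2509 was the lowest of the 4 for the remaining 9. These comparisons share the vehicle library.

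The same 4 genes that SP2509 left nearest to vehicle were also among those that Dox moved least in the shLSD1 line. Across the 13 protein genes the log2 fold changes with SP2509 and with induced shLSD1 had Pearson's r of -0.83 and Spearman's rho of -0.91, and across the 12 without MT-ATP8 -0.90 and -0.95: genes farther below vehicle with the inhibitor were farther above control with the hairpin. With induced shG9a in place of shLSD1, r was -0.67 and rho -0.65 over 13 genes and -0.76 and -0.83 without MT-ATP8. Between both induced hairpins r was 0.57 and rho 0.47 over 13 genes and 0.92 and 0.87 without MT-ATP8. UNC0642 against induced shG9a gave r of -0.40 and rho of -0.30, and -0.13 and -0.11 without MT-ATP8. Against induced shLSD1, UNC0642 gave 0.14 and 0.01, and -0.24 and -0.26 without MT-ATP8. The combination did not repeat the pattern seen with SP2509 alone. It gave r of 0.05 and rho of 0.04 against induced shLSD1, and 0.19 and 0.14 against induced shG9a. Without MT-ATP8 these were 0.13 and 0.15, and 0.13 and 0.11. The genes are parts of 2 shared precursors and of the same 4 libraries, and differ in length and read number, so they are not independent and no p is given.

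**Figure D4:**
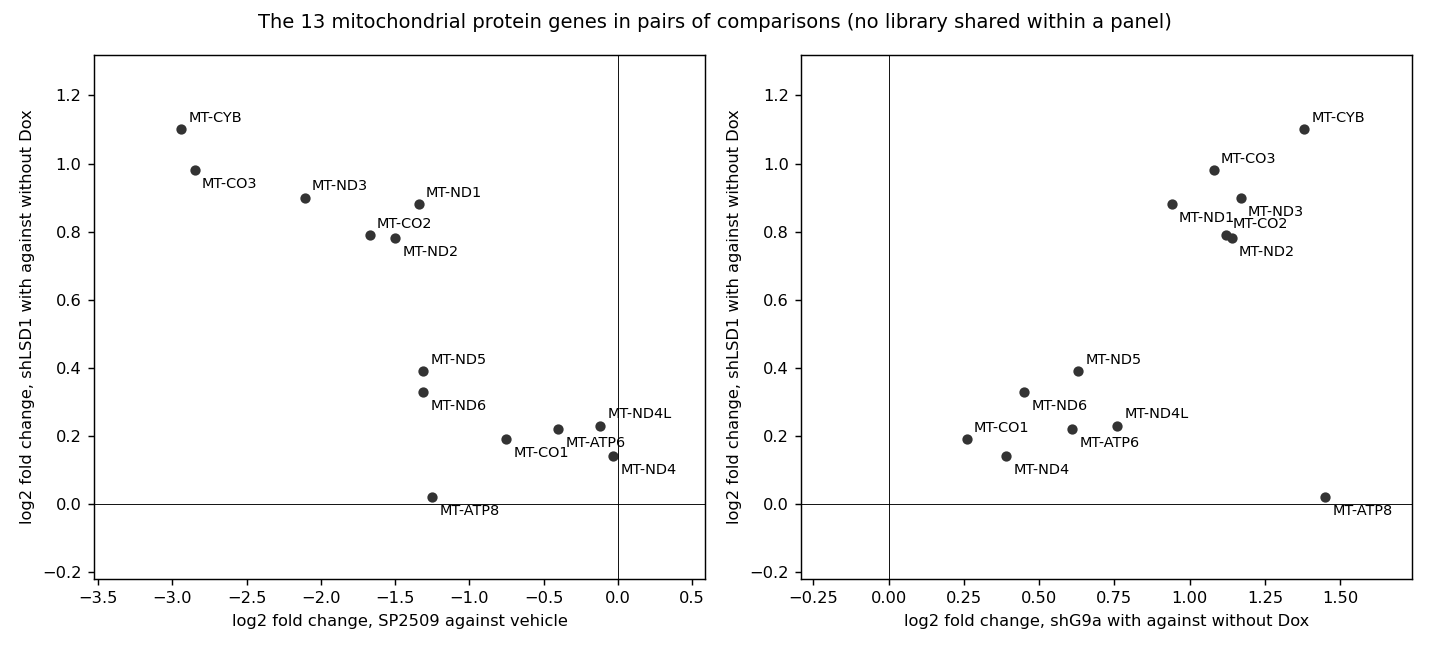
Each labelled point is 1 of the 13 mitochondrial protein genes, with its log2 fold change on FPKM + 1 with induced shLSD1 on the y axis against SP2509 (left) and induced shG9a (right) on the x axes. At left the points fall from MT-CYB at upper left to MT-ND4 at lower right, and at right they climb from MT-ND4 to MT-CYB with MT-ATP8 apart.

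Nuclear genes that serve the mitochondrial genome were read from lists by role. Their counts stand beside those of all genes: 39.9% lower and 21% higher with SP2509, 16.9% and 18.2% with UNC0642, 31.7% and 31.4% with the combination, 12.3% and 24.8% with shLSD1, and 17.6% and 32.9% with shG9a. Mitochondrial transcription needs the polymerase POLRMT and the factors TFAM, which also packs the DNA, and TFB2M. Of 9 genes of this list all 9 were lower with SP2509 (median log2 -0.61), none passed the threshold with UNC0642 (median -0.21), 4 were lower with the combination (median -0.30), and 5 were higher and none lower with each induced hairpin (medians 0.45 and 0.43). TFAM was 20.05 FPKM with vehicle and 11.45 FPKM with SP2509, but 22.52 FPKM with UNC0642 and 19.1 FPKM with the combination. With Dox it went from 7.264 to 12.74 FPKM with shLSD1 and from 7.797 to 14.73 FPKM with shG9a. TFB2M was 31.2 FPKM with vehicle, 13.62 FPKM with SP2509, 24.77 FPKM with UNC0642 and 34.27 FPKM with both inhibitors, and went from 11.95 to 23.46 FPKM and from 15.74 to 23.31 FPKM with Dox. POLRMT was 6.966, 5.097, 7.866 and 6.879 FPKM in the inhibitor libraries and went from 9.673 to 8.059 FPKM with shLSD1 and from 9.864 to 13.68 FPKM with shG9a.

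Of the 21 tested genes of RNA processing and stability 15 were lower and none higher with SP2509 (median -0.76). With UNC0642, 4 were lower, near the 16.9% of all genes, and 1 higher (median -0.00). The combination had 12 lower and 3 higher (median -0.49), and shLSD1 had 11 higher and none lower (median 0.39). With shG9a, 11 of 22 tested were higher and none lower (median 0.38). KIAA0391, among these 11, went from 0.5109 to 1.001 FPKM and passed the filter only through its level with Dox. LRPPRC, which binds and stabilises mitochondrial mRNAs, was 65.82 FPKM with vehicle, 45.7 FPKM with SP2509, 55.62 FPKM with UNC0642 and 32.6 FPKM with both inhibitors, and went with Dox from 31.55 to 35.27 FPKM (shLSD1) and from 31.28 to 40.23 FPKM (shG9a). Its partner SLIRP was 17.84, 10.1, 19.44 and 15.92 FPKM in the inhibitor libraries and within 1.3-fold of control with both hairpins. ELAC2, which cuts the 3′ ends of the tRNAs, was 11.74 FPKM with vehicle, 5.913 FPKM with SP2509, 12.1 FPKM with UNC0642 and 7.18 FPKM with both inhibitors. With Dox it went from 7.11 to 10.81 FPKM with shLSD1 and from 7.985 to 14.04 FPKM with shG9a. PNPT1, the RNA-degrading enzyme of the matrix, was 19.23 FPKM with vehicle, 7.144 FPKM with SP2509, 19.67 FPKM with UNC0642 and 11.9 FPKM with both inhibitors. With Dox PNPT1 went from 6.615 to 11.46 FPKM (shLSD1) and from 7.76 to 11.27 FPKM (shG9a). Its helicase SUPV3L1 was 13.24, 10.27, 9.632 and 13.14 FPKM in the inhibitor libraries and within 1.3-fold of control with both hairpins. MTPAP, the mitochondrial poly(A) polymerase, was 3.991 FPKM with vehicle, 2.479 FPKM with SP2509, 2.808 FPKM with UNC0642 and 2.53 FPKM with both inhibitors. The lowest log2 fold changes of this list were ANGEL2 with SP2509 (-1.37) and PTCD2 with UNC0642 (-0.51) and with the combination (-1.11). The highest were TRMT10C, a subunit of the mitochondrial RNase P, with UNC0642 (0.49), FASTKD5 with the combination (0.80) and shG9a (1.13), and HSD17B10, a further RNase P subunit, with shLSD1 (0.94).

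Of 9 genes of mitochondrial DNA replication, 6 were lower with SP2509, 1 higher and 2 lower with UNC0642, 3 higher and 3 lower with the combination (the last 2 near the shares of all genes), and 4 and 5 higher with the induced hairpins, none lower. RNASEH1 was the lowest with SP2509, at 3.176 FPKM against 14.75 FPKM. The polymerase POLG was 14.13 FPKM with vehicle, 13.15 FPKM with SP2509, 18.75 FPKM with UNC0642 and 21.7 FPKM with both inhibitors, and the helicase TWNK 9.282, 6.5, 10.28 and 18.36 FPKM. TWNK went from 4.552 to 7.933 FPKM with shLSD1 and MGME1, a nuclease of the mitochondrial DNA, from 7.169 to 14.81 FPKM with shG9a. Among 18 genes that modify mitochondrial tRNA and rRNA, 11 were lower and 2 higher with SP2509, 3 lower with UNC0642 (near the 16.9% of all genes), 6 lower and 3 higher with the combination (the lower ones near the 31.7% of all genes), and 8 and 10 higher with the hairpins, none lower. MRM1, which methylates the large mitochondrial rRNA MT-RNR2, was the lowest with SP2509 and the highest with both hairpins: 8.355 FPKM with vehicle, 1.21 FPKM with SP2509 and 3.35 FPKM with the combination, and with Dox from 3.367 to 9.658 FPKM and from 3.939 to 11.1 FPKM. MT-RNR2 itself had log2 fold changes of 1.03 with SP2509, 0.37 with the combination, -0.36 with shLSD1 and -0.54 with shG9a. With UNC0642 both were below vehicle, MRM1 at -0.37 and MT-RNR2 at -0.87. In the same list YRDC was the highest with the combination (8.707 to 29.36 FPKM) and NSUN4 the lowest with UNC0642 (6.68 to 3.34 FPKM).

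Among 8 tested regulators of mitochondrial biogenesis, 4 were lower and 1 higher with SP2509, none passed with UNC0642, 1 was lower and 1 higher with the combination, 5 were higher and 1 lower with shLSD1, and 2 higher and 1 lower with shG9a. The coactivator PPARGC1A was under 1 FPKM in every library, and its relative PPARGC1B was 2.809 FPKM with vehicle and 0.5404 FPKM with SP2509. MYC, a transcription factor that also drives growth programmes outside the mitochondrion, was higher with SP2509 and the combination and lower with both hairpins. It was 136.5 FPKM with vehicle, 696.6 FPKM with SP2509, 153.4 FPKM with UNC0642 (within 1.3-fold) and 182.1 FPKM with both, and went from 218.9 to 104.6 FPKM with shLSD1 and from 205.7 to 67.17 FPKM with shG9a.

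The median of the nuclear subunits lay nearer to 0 than that of the mitochondrial ones for complexes I, III, IV and V in each comparison, with the exception of complex V with induced shLSD1. With SP2509 the 31 tested nuclear subunits of complex I had a median log2 fold change of -0.33 (14 lower, 1 higher, near the 39.9% of all genes lower and their median of -0.21) beside -1.31 for the 7 mitochondrial ones, and the 11 of complex IV a median of -0.20 with none past the threshold, beside -1.67 for the 3 mitochondrial ones. The 9 of complex III had a median of -0.39 with 5 lower, beside -2.94 for MT-CYB, and the 14 of complex V -0.37 with 6 lower, also near the share of all genes, beside -0.82. The last value is the midpoint of MT-ATP6 and MT-ATP8. MT-ATP6 alone, at -0.40 with SP2509, -0.48 with the combination and 0.61 with shG9a, was close to the nuclear medians of -0.37, -0.48 and 0.59, so the gap of complex V there rests on MT-ATP8 and its few reads. The largest of these changes were NDUFS8 of complex I (15.13 to 5.911 FPKM), UQCR11 of complex III (5.937 to 1.697 FPKM) and ATP5A1 of complex V (26.62 to 13.58 FPKM). The 1 complex I gene higher with SP2509, NDUFV2 (0.1178 to 1.057 FPKM), passed the filter only through its level with SP2509. NDUFC2, among the 14 lower, passed only through vehicle (1.107 to 0.1059 FPKM). With the combination the 11 nuclear subunits of complex IV had a median of 0.23, with 3 higher and 1 lower. The count of 3 is near the 31.4% of all genes higher. Its mitochondrial subunits had a median of -1.20 with 2 of 3 lower, beside 31.7% of all genes lower.

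With induced shLSD1 the nuclear medians were 0.11 for complex I (5 higher, 1 lower of 31), 0.08 for complex III (none past the threshold), 0.02 for complex IV (none) and 0.15 for complex V (1 higher of 14), beside mitochondrial medians of 0.39, 1.10, 0.79 and 0.12. Since 24.8% of all genes were higher and 12.3% lower there, none of these nuclear counts exceeded the share of all genes. With induced shG9a, 18 of 31 nuclear subunits of complex I were higher (median 0.42), 1 of 9 of complex III (0.24), 4 of 11 of complex IV (0.36) and 11 of 13 of complex V (0.59), none of them lower. Beside these, 32.9% of all genes were higher and 17.6% lower, so the count of complex IV was near that share and that of complex III under it. The largest of each complex were NDUFC2 (0.6611 to 2.352 FPKM) of complex I, UQCR10 (30.45 to 54.9 FPKM) of complex III, NDUFA4 (22.82 to 43.18 FPKM) of complex IV and ATP5MC1 (12.55 to 28.18 FPKM), a subunit of the membrane ring of ATP synthase. NDUFC2 was under 1 FPKM without Dox and passed the filter only through its level with Dox. So did ATP5MG of complex V (0.9832 to 1.946 FPKM), 1 of the 11 higher. Among complex I genes of at least 1 FPKM in both libraries, NDUFS5 changed most (134.5 to 255.2 FPKM). With UNC0642 all 4 nuclear medians lay between -0.16 and -0.04. Complex II, whose 4 subunits are all nuclear, had medians of -0.23 with SP2509, 0.05 with UNC0642, -0.14 with the combination, -0.05 with shLSD1 and 0.14 with shG9a, and SDHD fell from 9.539 to 4.275 FPKM with SP2509.

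**Figure D5:**
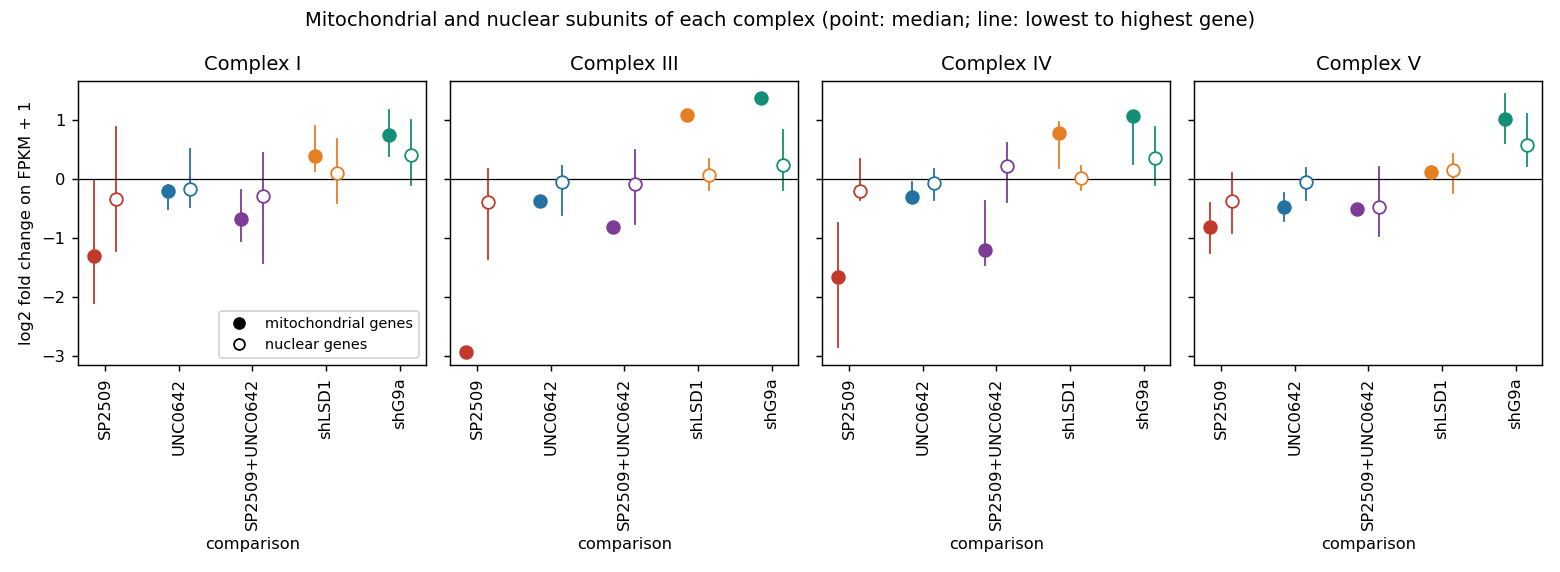
For complexes I, III, IV and V, filled points give the median log2 fold change on FPKM + 1 (y axis) of the mitochondrial subunits and open points that of the nuclear subunits in each comparison (x axis), with lines from the lowest to the highest gene. The filled points lie farther from 0 than the open ones for complexes III and IV in all 5 comparisons, and for complex V with induced shLSD1 they nearly coincide (0.12 and 0.15).

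Nuclear copies of mitochondrial genes can take or give reads. Of 54 such copies listed with the inhibitors and 38 with the hairpins, 3 reached 5 FPKM in a library: MTND2P28 (98.37% identical to MT-ND2 over 1042 aligned bases), MTCO1P12 (98.7% identical to MT-CO1) and MTATP6P1 (98.53% identical to MT-ATP6), all on chromosome 1. MTATP6P1 held 12.16 to 16.79% of the reads on it and MT-ATP6 together, and MTND2P28 4.779 to 5.312% of those on it and MT-ND2. MTND2P28 moved as MT-ND2 did, at 0.331 of vehicle with SP2509 against 0.353. Adding the reads of the copy changed the log2 fold change of MT-ATP6 with SP2509 from -0.40 to -0.44 and that of MT-ND2 from -1.50 to -1.51. MTCO1P12, with 146 to 1100 reads, held at most 0.243% of the summed reads, and with SP2509 it went to 1.313 of vehicle while MT-CO1 went to 0.5952.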

How the data were processed

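RNA-seq of 8 Kyse510 libraries (paired reads of 150 bases) was analysed from the deposited tables. The authors supplied 1 FPKM value per gene and library on GRCh38 with Ensembl release 87 (named in the submitters' processing notes); the aligner, counter, strand use and RNA selection are not given in the sources used here. Their comparison columns (fold changes and p-values) were not used, and 0 per-sample columns lacked a sample. The members and lists were chosen with earlier results of these data known. All rRNA and protein genes are named, tRNA genes past the fold threshold, 12 fixed nuclear genes, and some but not all extremes of the nuclear lists.

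Library totals were recovered from genes with 1 exon, whose FPKM times length gave whole reads within 0.02 in 100% of values, and were tested on simulated data. Counting intervals are exact binomial (95%). Fold changes are log2 of FPKM + 1, which understates low genes. Genes with at least 1 FPKM in either library were tested against a fold of 1.3. A gene under 1 FPKM in 1 of the 2 libraries passed only through the other, so the filter set its direction. No test was run, since each condition is 1 library. Python 3.11.15, numpy 2.4.6, pandas 2.3.3, scipy 1.17.1 and matplotlib 3.10.9 were used. Alternatives were the pseudocount, filter, fold, 3 scalings, the control and, added after seeing the data, leaving out MT-ATP8 and adding reads of nuclear copies.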

Additional observations from a re-analysis of the deposited data

Results flagged for a closer look

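For both enzymes the median of the mitochondrial protein genes had opposite signs with the inhibitor and the induced hairpin. For LSD1 the median log2 fold change of the 13 genes was -1.31 with SP2509 and 0.39 with induced shLSD1, and for G9a it was -0.23 with UNC0642 and 0.94 with induced shG9a. The value with UNC0642 is small: 3 of the 13 genes were lower, near the 16.9% of all genes, and 0 at a fold of 2. As deposited, all 13 genes were below control with each inhibitor and above control with each hairpin. MT-ATP8 had 43 reads both without and with Dox in the shLSD1 line, a ratio of 1.014 with an interval of 0.6488 to 1.585. Under other scalings MT-ND4 and MT-ND4L with SP2509, and MT-ND4 and MT-ATP8 with shLSD1, changed direction. With 1 library per condition the difference between inhibitor and hairpin was not tested, and the 2 arms also differ in their controls, their selection in puromycin and the presence of Dox.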

How the results depend on the processing

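With no replicates, no library could be left out and counting intervals are narrow for all but MT-ATP8 and MT-TF, so a median counted as moved when it left the interval of its middle gene. No median changed sign under any alternative, and the largest shift was 0.2. The median of the protein genes with SP2509 was -1.34 with a pseudocount of 0.1, -1.33 with mitochondrial genes out of the totals, -1.22 centred on nuclear genes and -1.11 with TMM. With UNC0642 it was -0.26 with mitochondrial genes out of the totals. With the combination it was -0.71 with mitochondrial genes out of the totals and -0.71 centred, -0.63 with TMM and -0.74 without MT-ATP8. With shLSD1 these 4 settings gave 0.42, 0.28, 0.24 and 0.58, and the mean of both lines without Dox as control 0.42. With shG9a the same 4 gave 0.98, 0.79, 0.75 and 0.85. At a fold of 2, counts of protein genes were 0 lower with UNC0642, 3 lower with the combination, 1 higher with shLSD1 and 6 higher with shG9a. For SP2509 that count stayed within 1.5 times. A minimum of 5 FPKM left 0 tRNA genes higher with shG9a, where MT-TF had 5 reads.

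Among all genes, a fold of 2 gave 1101 higher and 1736 lower with SP2509, 634 and 413 with UNC0642, 1811 and 1331 with the combination, 436 and 424 with shLSD1, and 671 and 788 with shG9a. A minimum of 5 FPKM gave 1624 and 2826, 1274 and 1117, 2557 and 2446, 1845 and 894, and 2459 and 1383 in the same order, since fewer genes were tested. Protein-coding genes alone gave 1446 lower with UNC0642. All other counts stayed within 1.5 times. No paired analysis was possible because each condition is 1 library and no result comes from a test.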
